A study of Mus musculus with 3 samples.

Results

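The cadherins, protocadherins and their alpha- and delta-catenins were examined in cultured mouse cells of the KPC78 line, which comes from pancreatic ductal adenocarcinoma and has the genotype label WT. Members were every symbol of the expression table named Cdh, Cdhr, Pcdh, Ctnna or Ctnnd with the number or isoform code that follows, 103 of 35764 symbols. They comprised 28 cadherin and cadherin-related genes, 70 protocadherins, 3 alpha-catenins and 2 delta-catenins. Beta-catenin (Ctnnb1) and plakoglobin (Jup) fall outside this naming and are given only as partners. The series held 3 libraries of polyadenylated RNA from 1 group with no treatment in its labels, sequenced to look at integrin genes and described as biological replicates without saying how the cultures were separated. With a single group, genes were compared with each other inside each library. Levels are in TPM, a share of transcripts corrected for transcript length, and the read depth behind them is not known.

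Cadherins are calcium-dependent adhesion receptors of the cell surface. The tails of the classical type I and type II cadherins bind p120-catenin (Ctnnd1) near the membrane and beta-catenin or plakoglobin further on, and alpha-catenin (Ctnna1) links beta-catenin to actin. Epithelial cells, including those of the pancreatic duct, typically carry E-cadherin (Cdh1), and a shift towards N-cadherin (Cdh2) is a textbook sign of epithelial-mesenchymal transition. Clustered protocadherins are best known from neurons. The alpha and the gamma genes each join their own first exon to constant exons shared by the whole cluster, whereas beta genes do not use such shared exons.

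Of the 103 members, 26 reached 1 TPM in every library and are called detected. This is 25.2%, beside 32.6% of all 35764 symbols and 55.2% of the 19793 symbols that RefSeq annotates as protein-coding. The median of the members' means was 0.123 TPM, beside 0.0337 TPM over all symbols and 3.87 TPM over protein-coding symbols. In bulk RNA, fewer cells expressing a gene and less RNA per cell cannot be told apart. A mean of at least 1 TPM was reached by 28 members and 15 were listed at 0 in every library. The detected members were 1 of 5 type I cadherins, 3 of 13 type II cadherins, Cdh13, Cdh17, Cdh26, 5 of 22 beta-cluster, 9 of 22 gamma-cluster and 3 of 12 non-clustered protocadherins, 1 of 3 alpha-catenins and 1 of 2 delta-catenins. None of the 5 cadherin-related genes and none of the 14 alpha-cluster protocadherins was detected. Just above the limit were Pcdhb20 with 1.5, 1.05 and 1.11 TPM and Pcdhga12 with 1.48, 1.14 and 1.29 TPM. Just below it were Pcdhb19 with 1.15, 0.874 and 1.04 TPM and Pcdhgb8 with 1.36, 0.644 and 1.14 TPM in replicates 1, 2 and 3.

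**Figure D1:**
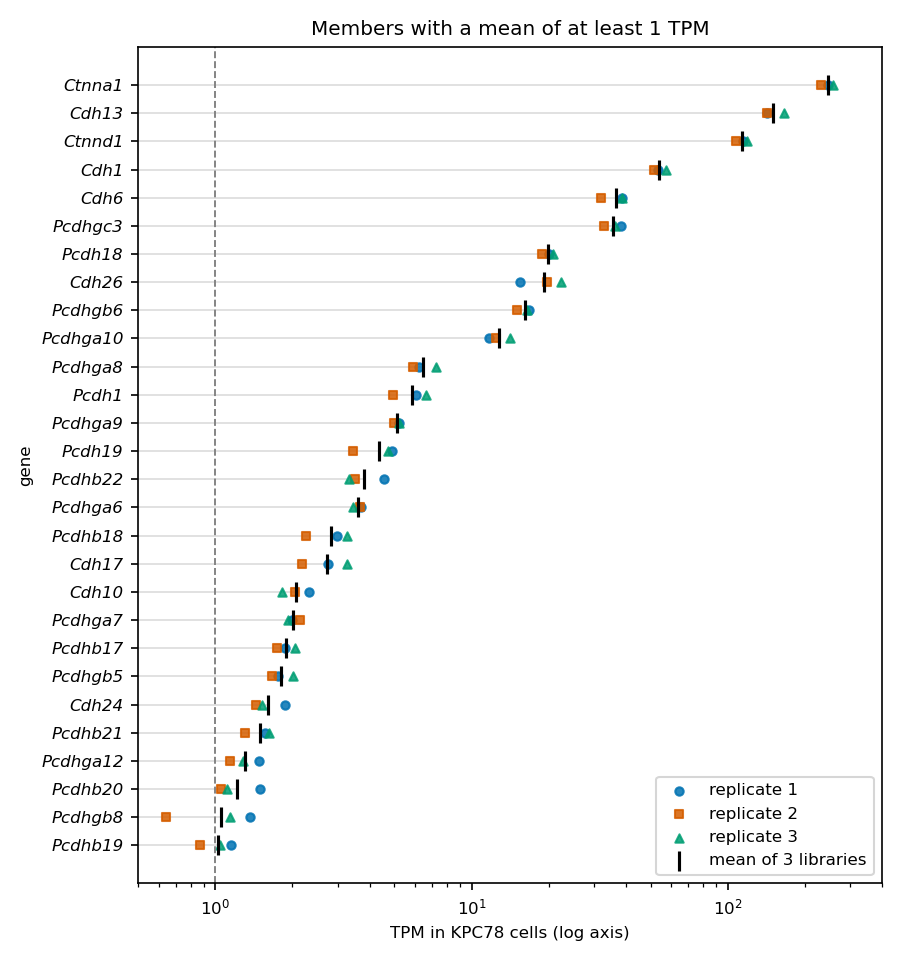
TPM of the 28 members with a mean of at least 1 TPM in the 3 KPC78 libraries, on a log axis, with a bar at the mean and a dashed line at 1 TPM. Ctnna1 leads at 245 TPM in the mean, and the replicate 2 square is the lowest of the 3 points for 22 of the 28 genes.

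The labelled cell type was checked against its markers. Of 7 markers of ductal tumour epithelium 6 were detected, with sums per library of 3127 to 3343 TPM, and the keratin gene Krt18 reached 1437, 1487 and 1493 TPM, while the epithelial surface gene Epcam stood at 0.203, 0.104 and 0.187 TPM. None of 6 endothelial, 6 fibroblast, 4 muscle or 5 leukocyte markers was detected, with sums per library of 0.363 to 0.603, 0.80 to 1.41, 0 to 0.0465 and 0.106 to 0.138 TPM. Cldn5, Myod1, Myog and Adgre1 were listed at 0 in every library. Among Schwann and neural markers, Tubb3 was detected with a mean of 3.07 TPM and Ncam1 with 1.61 TPM, while Sox10, which defines Schwann cells, was at 0.0314 TPM. The part of other cell types in the levels of the neural-type members was not tested. Replicate 2 was the lowest library for 22 of the 28 members with a mean of at least 1 TPM, or 78.6%, and for 60.7% of the 12014 genes of that level. The members' longest transcripts had a median of 4714.5 bases, beside 3283 bases over 11583 such genes with a transcript model. The part of transcript length in this was not tested. The median coefficient of variation of the 28 members was 10.8%, beside 6.52% over the 12014 genes. Without replicate 2 the median of the members was 7.04%, and no such value over all genes is given here for comparison.

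Promoter sequence was available from RefSeq for 31 members, as windows of 300 bases from 250 before to 50 after a gene start. The 4 windows below show 2 pairs of related genes that lie on the same chromosome and stood at different levels, and they were chosen after these levels were seen. Capitals mark the dinucleotide CG, which is the same on both strands, and each sequence runs 5′ to 3′ in the direction of the gene on GRCm38.p6.
Cdh6: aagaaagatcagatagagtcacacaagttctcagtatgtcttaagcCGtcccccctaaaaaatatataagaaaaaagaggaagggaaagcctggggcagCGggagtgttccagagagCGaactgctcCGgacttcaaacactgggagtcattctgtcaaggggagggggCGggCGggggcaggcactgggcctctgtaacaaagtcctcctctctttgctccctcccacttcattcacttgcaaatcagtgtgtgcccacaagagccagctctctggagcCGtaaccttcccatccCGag
Cdh9: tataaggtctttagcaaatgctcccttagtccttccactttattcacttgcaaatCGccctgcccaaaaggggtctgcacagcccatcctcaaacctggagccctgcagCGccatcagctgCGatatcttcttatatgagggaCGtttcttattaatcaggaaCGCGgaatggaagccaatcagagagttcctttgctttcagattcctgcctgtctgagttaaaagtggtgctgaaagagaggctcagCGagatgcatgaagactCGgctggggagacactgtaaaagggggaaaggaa
Pcdh18: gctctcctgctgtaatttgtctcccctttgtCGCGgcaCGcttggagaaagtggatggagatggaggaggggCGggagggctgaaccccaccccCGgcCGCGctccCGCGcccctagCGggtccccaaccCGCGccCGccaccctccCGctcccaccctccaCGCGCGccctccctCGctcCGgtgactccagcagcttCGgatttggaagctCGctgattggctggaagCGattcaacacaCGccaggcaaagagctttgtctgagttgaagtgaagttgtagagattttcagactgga
Pcdh10: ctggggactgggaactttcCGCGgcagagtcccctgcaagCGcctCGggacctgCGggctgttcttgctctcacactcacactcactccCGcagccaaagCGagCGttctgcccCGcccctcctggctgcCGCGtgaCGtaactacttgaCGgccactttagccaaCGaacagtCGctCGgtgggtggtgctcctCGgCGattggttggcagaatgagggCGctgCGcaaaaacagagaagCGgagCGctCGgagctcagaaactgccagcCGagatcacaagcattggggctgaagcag

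Cdh6 and Cdh9 are type II cadherins on chromosome 15. Their windows lie at chr15:13173626-13173925 on the minus strand and chr15:16728665-16728964 on the plus strand. Both windows are at annotated starts inside their genes, which span 13028699 to 13176407 for Cdh6 and 16728550 to 16857138 for Cdh9. Both windows held 8 CG, a count reached by 48.6% of all 32851 windows, and the genes averaged 36.5 TPM for Cdh6 and 0.385 TPM for Cdh9. Pcdh18 and Pcdh10 are delta-2 protocadherins on chromosome 3, with windows at chr3:49757267-49757566 on the minus strand and chr3:45378148-45378447 on the plus strand. The Pcdh18 window held 23 CG and the Pcdh10 window 24 CG, counts reached by 21.5% and 20.0% of all windows, and the genes averaged 19.9 TPM for Pcdh18 and 0.0390 TPM for Pcdh10. Only 7 of the 26 detected members had a window, and Ctnna1, Cdh13 and Cdh1 were not among them. Over the 8 windows of these 7 members the CG count had a median of 13. The lowest count was 2 for Cdh10, and the highest was 30 for Cdh24 and for 1 of the 2 Ctnnd1 windows. The median was 11 over the 29 windows of undetected members and 7 over all windows. These are counts of letters, not of methylated or bound sites.

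Among type I cadherins, Cdh1 (E-cadherin) carried nearly all of the RNA. It had 53.2, 51.3 and 57.5 TPM in replicates 1, 2 and 3, or 98.3% ± 0.25 (SD, n = 3) of the RNA of the 5 type I genes in TPM. Cdh2, the N-cadherin gene, had 0.616, 0.629 and 0.525 TPM, and Cdh15 (M-cadherin of muscle) had 0.245, 0.275 and 0.225 TPM. Cdh3 (P-cadherin), a gene of basal epithelial layers, had 0.0565, 0.0616 and 0.0606 TPM. Cdh3 lies directly before Cdh1 on chromosome 8, at 106510852 to 106556911 against 106603350 to 106670247 in GRCm38.p6 coordinates, with 46438 bases between the 2 genes. Cdh4 (R-cadherin) was listed at 0 in replicates 1 and 3 and at 0.0208 TPM in replicate 2. The Cdh1 values lay above those of the other type I genes in every library. All 7 listed transcriptional repressors of Cdh1 were detected as well, beside 55.2% of protein-coding symbols. They were led by Twist2 at 95.1 ± 2.73 TPM, Tcf3 at 81.9 ± 3.76 TPM, Twist1 at 29.4 ± 1.47 TPM and Zeb1 at 28.1 ± 3.90 TPM (SD, n = 3).

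Type II cadherins were led by Cdh6, the K-cadherin known from the developing kidney and, in humans, from kidney and ovarian tumours. Cdh6 had 38.8, 31.9 and 38.8 TPM, with replicate 2 the lowest, and made up 89.5% ± 0.84 (SD, n = 3) of the 13 type II genes. The other detected type II genes were low. Cdh10, known mainly from brain, had 2.32, 2.05 and 1.82 TPM, and Cdh24 had 1.87, 1.44 and 1.52 TPM. Cdh9 averaged 0.385 TPM and Cdh11, the cadherin of fibroblasts and osteoblasts, 0.180 TPM. Cdh5, the cadherin of endothelial junctions, averaged 0.0205 TPM and was listed at 0 in replicate 1. Cdh19 of Schwann cells averaged 0.0197 TPM, and Cdh8, Cdh18 and Cdh22 were each above 0 in 1 library only. Cdh7, Cdh12 and Cdh20 were listed at 0 throughout. Cdh12 and Cdh18 lie on chromosome 15 with Cdh6, Cdh9 and Cdh10, so type II genes of the same chromosome differed in level.

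Cdh1 and Cdh6 were therefore the main classical cadherins of these libraries. Cdh1 made up 56.5% ± 1.91 and Cdh6 38.1% ± 1.80 (SD, n = 3) of the 18 type I and type II genes, which summed to 97.7, 88.2 and 101 TPM. Cdh6 was below Cdh1 in 3 of 3 libraries, at 0.730, 0.621 and 0.676 of its TPM. On the log2(TPM + 1) scale, which understates ratios of low genes, limma over 12013 genes gave a log2 ratio of Cdh6 to Cdh1 of -0.56 (SE 0.059, adjusted p = 2.5e-07).

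The most abundant cadherin was one without a cytoplasmic tail. Cdh13 (T-cadherin), which is held in the membrane by a GPI anchor and binds adiponectin, had 142, 142 and 165 TPM. It was 2.77 ± 0.098-fold (SD, n = 3) above Cdh1 and made up 55.6% ± 0.76 of the TPM of all 28 cadherin genes. The log2 ratio of Cdh13 to Cdh1 was 1.45 (SE 0.054, limma adjusted p = 6.4e-13), and Cdh13 was higher in 3 of 3 libraries. Cdh13 is a long gene, spanning 118140017 to 119324929 on chromosome 8. Cdh26, in humans a cadherin of inflamed gastrointestinal epithelium, had 15.5, 19.7 and 22.3 TPM and was the only member above 10 TPM with a coefficient of variation over 15%, at 18%. Unlike most members it was lowest in replicate 1. Of the 7D cadherins, which carry additional extracellular repeats and a short tail, Cdh17 of liver and intestine had 2.76, 2.18 and 3.27 TPM. The kidney gene Cdh16 had 0.691, 0.447 and 0.389 TPM. Cdh23, a tip-link cadherin of hair cells, averaged 0.00856 TPM.

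Cadherin-related genes stayed under the detection limit. Cdhr5, a mucin-like protocadherin of the intestinal brush border, had 0.726, 1.14 and 0.90 TPM. Its microvillar partner Cdhr2 was listed at 0 in replicate 2 and averaged 0.0126 TPM. Of the other listed genes of that complex, Ush1c averaged 0.186 TPM, Myo7b 0.154 TPM and Anks4b 0.0133 TPM, while the calmodulin-like gene Calml4 stood at 42.0 ± 3.07 TPM (SD, n = 3). Cdhr1 of photoreceptors averaged 0.333 TPM, Cdhr3 was above 0 in replicate 1 only, and Cdhr4 was listed at 0 in every library.

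Ctnna1 and Ctnnd1 each exceeded the summed TPM of the classical cadherins. Ctnna1 (alpha-E-catenin) had 247, 232 and 257 TPM and was the highest of all members. Its paralogs Ctnna2 of neurons and Ctnna3 of heart and testis averaged 0.0083 and 0.0045 TPM, so Ctnna1 made up 99.99% of the alpha-catenin RNA. Ctnnd1 (p120-catenin) had 115, 108 and 119 TPM and the neural Ctnnd2 0.0176, 0.0202 and 0.199 TPM. Ctnnd1 thus made up 99.9% ± 0.086 (SD, n = 3) of the delta-catenin pair. The ratio of Ctnna1 to Ctnnd1 was 2.15, 2.16 and 2.16 in the 3 libraries, a spread smaller than that of either gene, whose coefficients of variation were 5.07% each. The log2 ratio of Ctnnd1 to Ctnna1 was -1.10 (SE 0.038, limma adjusted p = 1.3e-08). In GENCODE M21 only 41.4% of the 31-base words of Ctnnd1 transcripts were found in no other gene. Another 58.5% were shared with the gene model Gm28635, which the table lists at a mean of 2.50e-06 TPM.

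Relative to Cdh1, Ctnna1 was 4.54 ± 0.093-fold and Ctnnd1 2.11 ± 0.045-fold higher in TPM (SD, n = 3). On the log2(TPM + 1) scale Ctnna1 exceeded Cdh1 by 2.16 (SE 0.056, limma adjusted p = 1.9e-14) and Ctnnd1 did by 1.06 (SE 0.053, limma adjusted p = 2.3e-11). Against the sum of the 18 classical cadherins, Ctnnd1 stood at 1.18, 1.22 and 1.18 times its TPM and Ctnna1 at 2.53, 2.63 and 2.54 times. Of the 27 other members with a mean of at least 1 TPM, Ctnna1, Cdh13 and Ctnnd1 were higher than Cdh1 and 24 were lower. This is 11.1% and 88.9%, beside 22.0% and 73.9% of the 12013 genes tested. All 27 were lower than Ctnna1, as were 95.1% of all genes tested. As Ctnna1 is the highest member, its choice as denominator fixed in advance that no member would be called higher. Of all genes tested, 4.15% were called higher than Ctnna1. All ratios to Cdh1 share the error of the same 3 Cdh1 values, and p-values measure the spread between these libraries only.

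**Figure D2:**
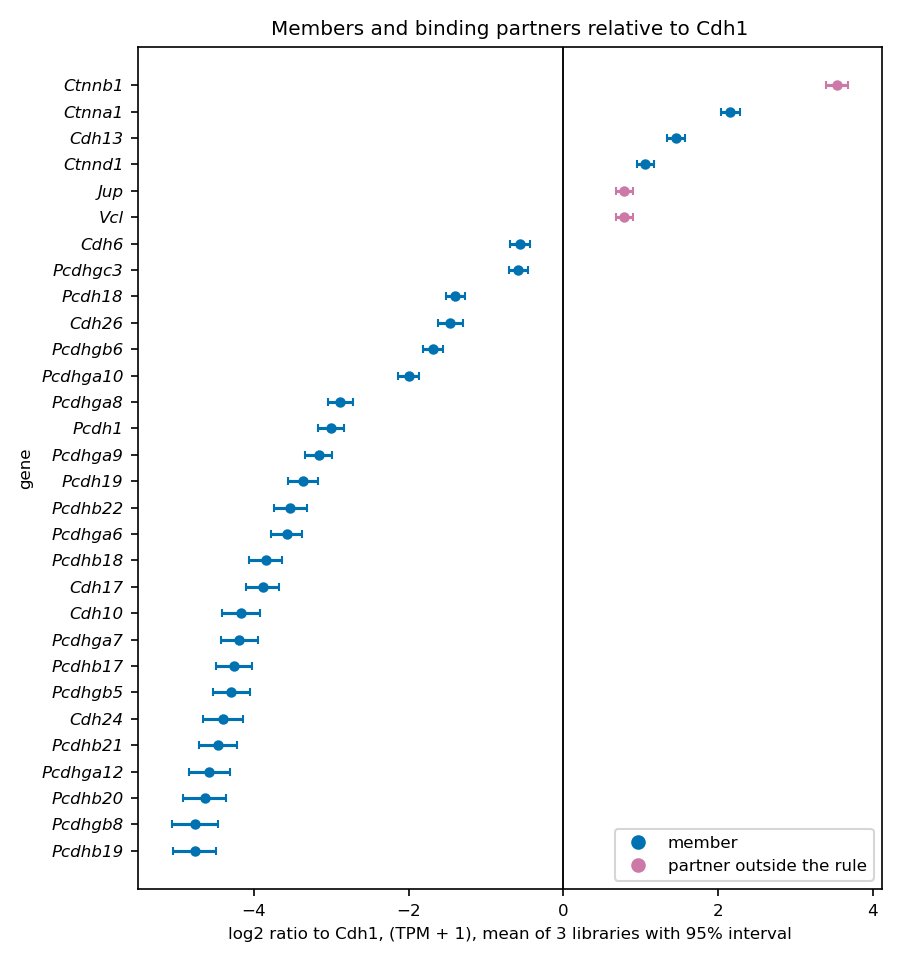
Log2 ratio of each gene to Cdh1 on the (TPM + 1) scale for the 27 other members with a mean of at least 1 TPM and 3 partners, as the mean of 3 libraries with its 95% interval from limma. Ctnna1, Cdh13 and Ctnnd1 lie to the right of 0 with all 3 partners, and the other 24 members lie to the left, down to -4.77 for Pcdhb19.

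Partners outside the naming rule were mostly detected, beside 55.2% of protein-coding symbols at the same limit. All 6 genes listed as catenins and related partners were detected, and some of them are counted again among the p120-catenin relatives below. Ctnnb1 (beta-catenin), which also serves in WNT signalling, had 673, 616 and 630 TPM, or 11.9 ± 0.85-fold (SD, n = 3) the level of Cdh1 and 2.61 ± 0.14-fold that of Ctnna1. Jup (plakoglobin) had 93.3, 90.6 and 98.5 TPM, or 1.74 ± 0.027-fold the level of Cdh1. Of 9 actin linkers of alpha-catenin 8 were detected, among them Vcl (vinculin) at 94.1 ± 4.49 TPM (SD, n = 3). Ctnna1 was 2.61 ± 0.023-fold above Vcl. Ablim3 was the exception at 0.0327 TPM. Of 6 p120-catenin relatives and Kaiso 5 were detected, led by Pkp4 at 48.9 ± 2.12 TPM, and Pkp3, a desmosomal plakophilin of epithelia, was not, at 0.412 TPM. All 9 listed genes of cadherin shedding and turnover were detected, with Arf6 at 246 ± 0.91 TPM, Adam15 at 168 ± 15.7 TPM and the E-cadherin sheddase gene Adam10 at 101 ± 4.13 TPM (SD, n = 3). Of 6 nectins and relatives 4 were detected, led by Cadm1 at 68.7 ± 1.41 TPM and Nectin2 at 53.0 ± 2.13 TPM (SD, n = 3). Nectin2 was not called different from Cdh1, with a log2 ratio of -0.03 (95% interval -0.14 to 0.09, limma adjusted p = 0.64). Nectin1 and Nectin4 averaged 0.0257 and 0.0327 TPM. Of 14 atypical cadherins and their relatives 6 were detected, led by Clstn1 at 122 ± 6.43 TPM and by Fat1 at 69.9, 43.8 and 74.2 TPM, again lowest in replicate 2.

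Protocadherin RNA came mostly from the gamma cluster. The gamma genes summed to 95.1, 85.2 and 95.4 TPM, the beta genes to 16.2, 13.1 and 15.1 TPM and the alpha genes to 0.0765, 0.0490 and 0.105 TPM. The 3 clusters lie one after the other on chromosome 18, alpha from 36930285, beta from 37264998 and gamma from 37661775 to 37841873. Gamma genes made up 67.0% ± 0.60, non-clustered genes 22.1% ± 0.48, beta genes 10.8% ± 0.50 and alpha genes 0.055% ± 0.017 (SD, n = 3) of the protocadherin total over 70 genes. Gamma exceeded beta 6.23 ± 0.32-fold (SD, n = 3), and the 3 sums did not overlap between the clusters.

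In the alpha cluster 10 of 14 genes were listed at 0 in every library. Pcdha10 was the highest with 0.0573, 0.0255 and 0.105 TPM. Pcdha7 and Pcdhac2 were above 0 only in replicate 2, and Pcdha9 only in replicate 1.

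Within the beta cluster the genes at the end nearest to gamma were the higher ones. The last 6 genes in chromosomal order, Pcdhb17 to Pcdhb22, had means between 1.02 and 3.79 TPM, while the first 16 had means between 0 and 0.638 TPM. These 6 were picked after their values were seen. They made up 82.6% ± 1.11 (SD, n = 3) of the beta sum. Pcdhb22 had 4.53, 3.51 and 3.32 TPM, Pcdhb18 had 2.97, 2.26 and 3.28 TPM and Pcdhb17 had 1.87, 1.74 and 2.04 TPM. Pcdhb21 had 1.56, 1.30 and 1.62 TPM. Among the first 16 genes Pcdhb5 was the highest, with 0.652, 0.307 and 0.956 TPM, and Pcdhb1 was listed at 0 in every library. Over the 22 genes, Spearman's rho between place in the cluster and mean TPM was 0.67, and 0.62, 0.75 and 0.70 in replicates 1, 2 and 3. The genes of one cluster share libraries and some sequence, so this is a description.

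**Figure D3:**
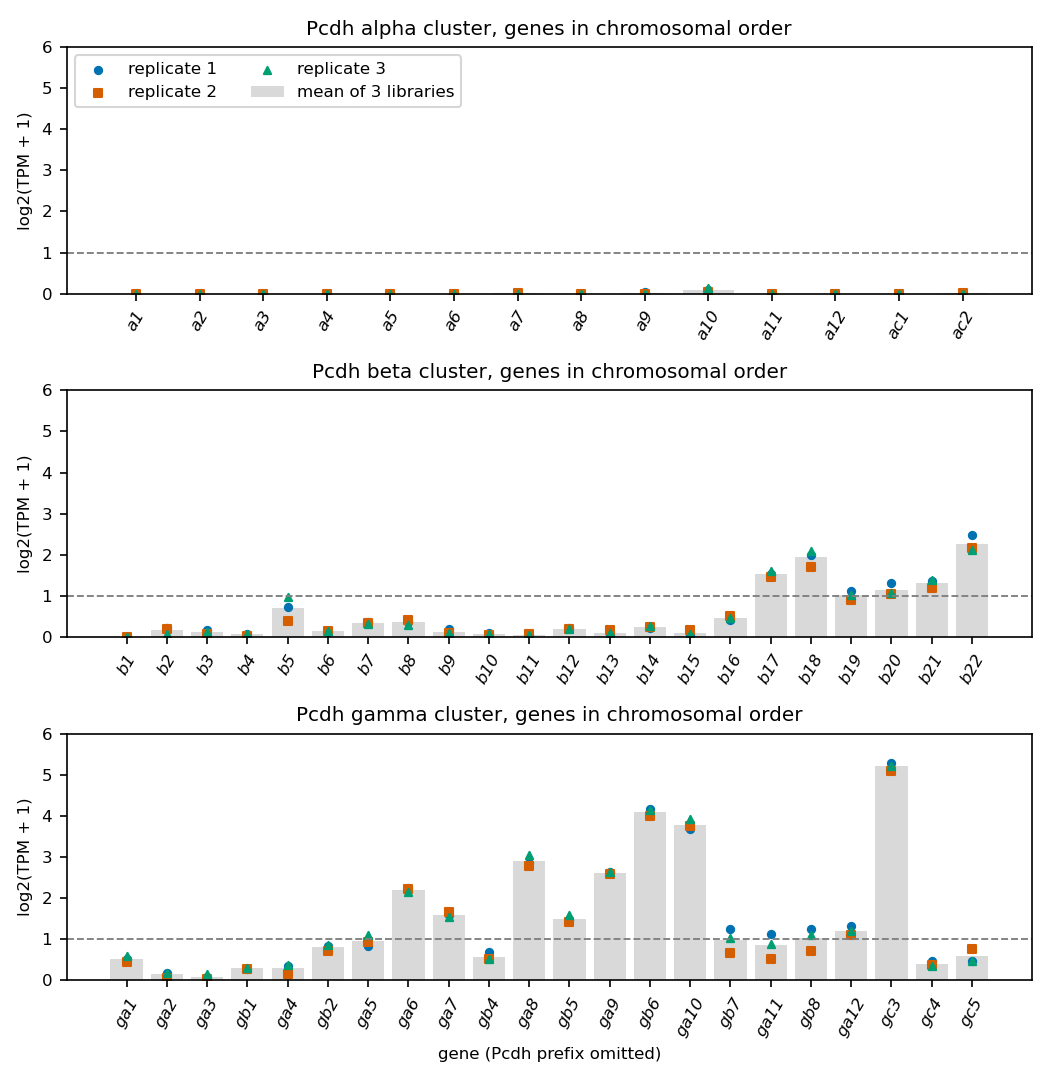
Levels of the clustered protocadherins as log2(TPM + 1), genes in chromosomal order, grey bars at the mean and points for the 3 libraries, with a dashed line at 1 TPM. The alpha genes sit at or near 0, the beta genes above the line lie at the end of their cluster, and Pcdhgc3, Pcdhgb6 and Pcdhga10 stand highest in the gamma cluster.

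In the gamma cluster 3 genes carried most of the signal. Pcdhgc3, a C-type gene, had 38.2, 32.8 and 36.3 TPM, Pcdhgb6 had 16.8, 15.0 and 16.5 TPM and Pcdhga10 had 11.7, 12.5 and 14.1 TPM. Their joint share of the gamma sum was 70.4% ± 0.37, with 38.9% ± 1.08 from Pcdhgc3 (SD, n = 3). Pcdhgc3 was 2.22 ± 0.046-fold above Pcdhgb6 (SD, n = 3). Its C-type neighbours Pcdhgc4 and Pcdhgc5, which follow it on the chromosome, averaged 0.313 and 0.495 TPM. By subfamily, 6 of 12 A genes, 2 of 7 B genes and 1 of 3 C genes were detected, with sums of 33.9 ± 2.10, 21.4 ± 1.97 and 36.6 ± 2.59 TPM (SD, n = 3).

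Below the leading gamma genes came Pcdhga8 with 6.26, 5.91 and 7.25 TPM, Pcdhga9 with 5.22, 4.96 and 5.21 TPM and Pcdhga6 with 3.70, 3.68 and 3.44 TPM. Pcdhga9 and Pcdhga6 had the smallest coefficients of variation of the 28 members, 2.88% and 3.99%. Pcdhga7 averaged 2.02 TPM, Pcdhgb5 1.81 TPM and Pcdhga12 1.30 TPM. At the start of the cluster Pcdhga1, Pcdhga2 and Pcdhga3 averaged 0.427, 0.102 and 0.0645 TPM. Pcdhgb8, which RefSeq annotates as a transcribed pseudogene, varied most of the 28, with a coefficient of variation of 35.1%. Over the 22 genes, Spearman's rho between place and mean TPM was 0.47.

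The split between gamma genes rests on limited unique sequence. In GENCODE M21 the median gamma gene had 51.0% of its 31-base words in no other gene, the median alpha gene 35.5%, the median beta gene 88.2% and the median non-clustered protocadherin 99.9%. For Pcdhga10 the share was 0.617%. Of its words, 54.9% were also in the gene model Gm26672, a symbol the table does not list, and 45.4% were also in other gamma genes. For Pcdhgc3 it was 33.8% and for Pcdhgb6 42.1%. The level of Pcdhga10 is therefore uncertain, and the gamma sum without it was 79.1 TPM. Over the 22 gamma genes, Spearman's rho between the unique share and mean TPM was -0.17, again a description over genes of the same libraries. Of the 77 members with at least 50% unique words, 20 were detected, or 26.0%.

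**Figure D4:**
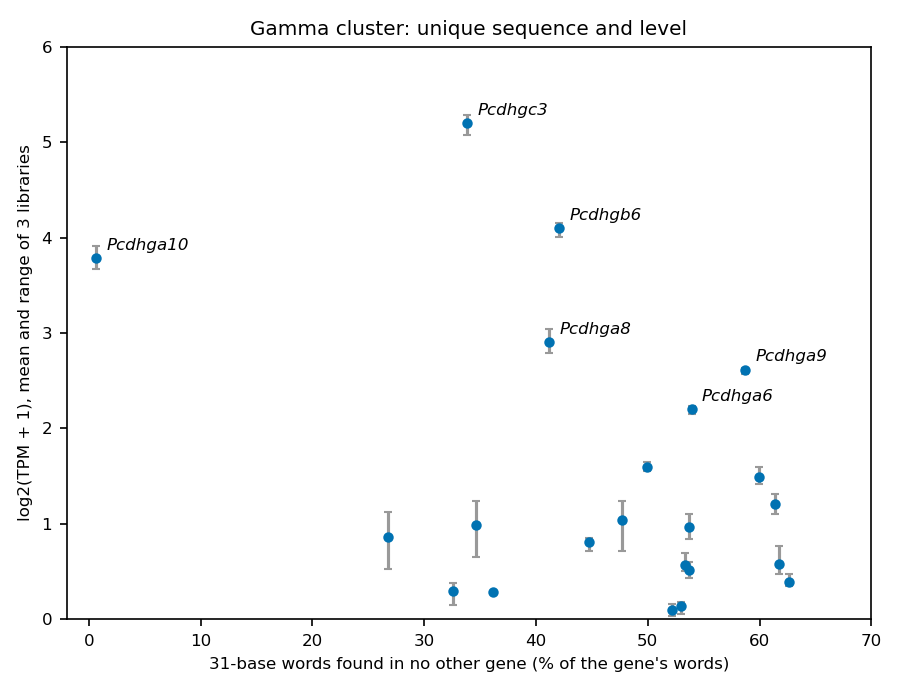
For each of the 22 gamma-cluster genes, the share of its 31-base words found in no other GENCODE M21 gene against log2(TPM + 1), as the mean with the range of the 3 libraries. Pcdhga10 stands alone at 0.617%, Pcdhgc3 is highest at 33.8%, and genes above 50% include detected and undetected ones.

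Non-clustered protocadherins were represented by Pcdh18, Pcdh1 and Pcdh19. Pcdh18 had 20.0, 18.8 and 20.9 TPM and made up 65.6% ± 2.47 (SD, n = 3) of the 12 genes. Pcdh1, a delta-1 protocadherin of airway epithelium and, in humans, a hantavirus receptor, had 6.06, 4.94 and 6.61 TPM. Pcdh19, whose human gene is mutated in an X-linked epilepsy, had 4.91, 3.46 and 4.73 TPM. Pcdh18 was 3.42 ± 0.34-fold above Pcdh1 (SD, n = 3). The other 9 genes had means between 0.00486 TPM for the endothelial Pcdh12 and 0.0892 TPM for Pcdh20, and 6 of them were listed at 0 in some library. Delta-2 protocadherins recruit the WAVE actin regulator through their tails. All 7 listed delta-protocadherin partners were detected, beside 55.2% of protein-coding symbols. Ppp1ca stood at 440.3 ± 4.21 TPM, Nckap1 at 79.8 ± 3.59 TPM, Abi1 at 78.4 ± 0.37 TPM and Cyfip1 at 66.0 ± 3.95 TPM (SD, n = 3).

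Of 9 listed regulators known to act on the clustered protocadherins, 8 were detected, beside 55.2% of protein-coding symbols. Rad21, a cohesin subunit, stood at 127 ± 5.77 TPM, Smc1a at 57.5 ± 2.39 TPM, Smc3 at 56.5 ± 2.47 TPM and Ctcf, whose protein binds cluster promoters, at 47.8 ± 1.43 TPM (SD, n = 3). The DNA methyltransferase gene Dnmt3b, which methylates cluster promoters in mouse embryos, had 1.38, 0.955 and 1.77 TPM and was the one not detected. It is named because its values were seen to straddle the limit.

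Ordered by mean level, 9 of the 27 neighbouring pairs among the 28 members had ranges that did not overlap, and in 14 pairs the upper gene was the higher in 3 of 3 libraries. The order Ctnna1, Cdh13, Ctnnd1, Cdh1 and Cdh6 was clear at every step. Cdh6 and Pcdhgc3 could not be ranked, with Cdh6 higher in 2 of 3 libraries, and Cdh26 could not be ranked against Pcdh18 or Pcdhgb6. Below Pcdhb18 no neighbouring pair had ranges apart.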

How the data were processed

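Expression was measured as TPM per gene symbol in 3 libraries, replicates 1 to 3, matched to columns by library name. The authors made the TPM table with kallisto, per the file headers, and version 0.44.0 of it is listed in the submitters' processing notes beside bcl2fastq 2.19 and GRCm38.p6. Which annotation release was used, and how transcripts were summed per gene, is not given in the sources used here. Reads shared between genes are split by the kallisto model, and TPM keeps no read depth, so no counting intervals are given. A second short table lists no member and was not used. The count and sum of the Schwann and neural marker list are not reported here.

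Members and lists were chosen with earlier results of these data known. The libraries summed to 999728, 999776 and 999741 TPM. Detection means at least 1 TPM in each of the 3 libraries. For each gene with a mean of at least 1 TPM, log2((TPM + 1)/(TPM of Cdh1 or Ctnna1 + 1)) was compared with 0 by an intercept model in limma 3.58.1 under R 4.3.3 (mean trend, two-sided), with Benjamini-Hochberg adjustment over 12013 genes and a threshold of 0.05. On simulated data for the Cdh1 comparison, 200 of 12013 genes were changed. Of their ratios, 21.6% of those of 0.25 and 96.9% of those of 1 on the log2 scale were called. Of the unchanged genes, a median of 0.343% were called in 40 draws, and 1.95% in the highest draw. These draws took the error of each gene as independent of that of Cdh1 and left most genes unchanged. In the real data 22.0% of genes were called higher than Cdh1 and 73.9% lower, so these rates need not hold there. The share of calls that were false is not reported. Coordinates came from RefSeq on GRCm38.p6, matched for 103 members. Shared 31-base words were counted in GENCODE M21 transcripts, matched for 102 members; Pcdha10 had no match. Protein stretches had been planned as the sequences shown; promoter windows are shown in their place. Any member could be named; of the partner lists, the 4 genes of highest mean and those under 1 TPM. Python 3.11.15 and pandas 2.3.3 were used. Alternatives were other pseudocounts, detection minimums and filters, no mean trend, leaving out each replicate, and rescaling after removal of mitochondrial and ribosomal protein genes.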

Additional observations from a re-analysis of the deposited data

How the results depend on the processing

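All 60 single-gene ratios to Cdh1 or Ctnna1 kept their direction and call in 476 recomputations. At a detection minimum of 5 TPM, 11 members were detected, with 1 type II, 0 7D, 0 beta-cluster, 4 gamma-cluster and 1 non-clustered gene. At 0.5 TPM, 33 members were detected, with 2 type I, 6 beta-cluster, 13 gamma-cluster and 1 cadherin-related gene among them. Shares over all symbols at 5 and 0.5 TPM are not given here, so these counts cannot be set against the whole table. With no filter on low values, 99 members and 32648 genes were lower than Cdh1, and 102 members and 35182 genes lower than Ctnna1, because more genes were tested. Summing only members with a mean of at least 1 TPM gave Cdh1 and Ctnna1 100% of their classes, and sums of 0, 12.2 and 86.1 TPM for alpha, beta and gamma. Rescaling without mitochondrial and ribosomal protein genes, which raises every level, gave 20.2 TPM for beta and 125 TPM for gamma. The gamma sum without Pcdhga10, an alternative chosen after seeing the data, was 79.1 TPM. The median coefficient of variation of members was 6.76% at a mean of at least 10 TPM, and between 7.04% without replicate 2 and 9.82% without replicate 3. No paired analysis was possible because every library belongs to the same group. Without read depth, levels near 0 cannot be told from 0.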
